A study of Mus musculus with 3647 samples.

Results

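Ptchd1 and 4 other genes linked to neurodevelopmental disorders (Cntnap2, Shank3, Ank2 and Chd2) were followed through single-nucleus RNA profiles of the mouse thalamic reticular nucleus (TRN) and of other brain regions. The 5 genes were chosen by name from the 23420 genes of the expression tables, and all 5 had values in all 3 tables. The TRN is a thin sheet of GABAergic neurons around the thalamus that inhibits thalamic relay neurons. Each nucleus was sorted into its own well of a plate, and its RNA was read with a modified form of Smart-seq2, a method that covers whole transcripts.

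The labels give 3647 samples, each a nucleus or a patched cell, and 2653 of them have values here. TRN tissue gave 1447 nuclei with values, of which 52% were sorted for a nuclear stain (Violet) and the neuronal protein NeuN and 48% for Violet alone (called unselected). Tissue next to the TRN, described by the series as thalamus and globus pallidus, gave 240 nuclei. Nuclei sorted for Violet and GFP, called Pvalb+ in the series' design, came from hippocampus (440 nuclei), striatum (71), M2 cortex (6.33% of the samples with values) and somatosensory cortex (5.62%), and 43 hippocampal nuclei have no sort label. Patch-seq, in which the contents of an electrically recorded TRN cell are sequenced, gave 95 profiles. The labels name no strain, genotype, age, sex, GFP driver or animal, so each group counts as 1 sample, plates describe the spread within it, and no test between groups was possible.

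Ptchd1 is an X-linked gene for a patched-domain membrane protein, and its loss in mice disturbs TRN neurons and attention. Cntnap2 encodes CASPR2, an axonal adhesion molecule that gathers potassium channels. Shank3 encodes a scaffold of the excitatory postsynaptic density, Ank2 encodes ankyrin-B, which links membrane proteins to the spectrin skeleton, and Chd2 encodes a chromatin remodeler. In mouse build mm10 the GENCODE vM21 annotation places all of them as protein-coding genes. Ptchd1 (ENSMUSG00000041552.7) lies on chromosome X from 155573455 to 155623814 on the minus strand, Cntnap2 (ENSMUSG00000039419.17) on chromosome 6 from 45059357 to 47304213 on the plus strand, and Shank3 (ENSMUSG00000022623.16) on chromosome 15 from 89499623 to 89560261 on the plus strand. Ank2 (ENSMUSG00000032826.17) lies on chromosome 3 from 126921612 to 127499350 and Chd2 (ENSMUSG00000078671.11) on chromosome 7 from 73426638 to 73541830, both on the minus strand. Each gene overlaps at least 1 annotated gene on the opposite strand, and Chd2 overlaps 1810026B05Rik, a non-coding gene on its own strand that the tables list separately. The sources used here do not say that strand was used in counting, so reads of such overlapping genes cannot be told apart.

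Levels are means over nuclei of TPM, a transcript abundance scaled to the same total in every nucleus, a gene is called detected in a nucleus where its TPM is above 0, and shares carry exact Clopper-Pearson 95% intervals, which cover counting error only. Differences are log2 ratios of mean TPM + 1, and a gene is called higher or lower past 2-fold, among genes with a mean of at least 1 TPM in either group. TPM keeps no read depth, so the number of detected genes stands in for it. Clusters were named from marker genes and built without the 5 genes: 53.8% of the 1447 TRN nuclei were GABAergic neuron-like (74% of NeuN-selected and 31.8% of unselected nuclei) and 13.8% were thalamic glutamatergic neuron-like. Gad1, which makes GABA, was detected in at least 97.1% of the GABAergic nuclei of each set of plates, and Slc17a6, the vesicular glutamate transporter of the thalamus, in at least 96% of the glutamatergic nuclei. The GFP sort was mixed: 50.2% of the 440 hippocampal nuclei were cortical or hippocampal glutamatergic neuron-like and 22.5% were GABAergic neuron-like. Pvalb was detected in 57.1% to 70% of the GFP-sorted GABAergic nuclei across the 4 regions.

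The NeuN-selected plates fall into 2 sets by plate name, NP1 to NP4 and TRNpA to TRNpD, which carry the same labels but differ in Ptchd1. On NP1, NP2, NP3 and NP4 the mean Ptchd1 level in GABAergic nuclei was 36.8, 37, 55.8 and 52.9 TPM. On TRNpA, TRNpB, TRNpC and TRNpD it was 316.6, 309.4, 273.7 and 241.1 TPM. The sets do not overlap: every TRNp plate was above every NP plate, and the means over nuclei were 285.97 TPM and 45.8 TPM, a log2 ratio of 2.62. The TRNp plates held 36.6% and the NP plates 35% of the TRN GABAergic nuclei. Only 40 of 14940 genes tested had a higher ratio between these sets, in which 12.7% of genes were at least 2-fold higher and 5.16% at least 2-fold lower on the TRNp plates. The other 4 genes moved by less than 2-fold, from -0.32 for Shank3 to 0.32 for Ank2 on the log2 scale.

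The split was larger in the level than in the share of nuclei. Ptchd1 was detected in 68% of GABAergic nuclei on the NP plates and in 84.2% on the TRNp plates, while the median over the nuclei with Ptchd1 was 34.5 TPM on the NP plates and 281.4 TPM on the TRNp plates. Thalamic glutamatergic nuclei of the same plates showed the same direction, with means of 8.55 TPM on the NP plates (75 nuclei) and 65.3 TPM on the TRNp plates (66 nuclei), but here the plates overlap. NP4, at 22.5 TPM, lay above TRNpB at 18.4 TPM and TRNpD at 18.6 TPM, and without TRNpA the TRNp mean was 37 TPM. The TRNp plates also had more detected genes (plate medians of 5254 to 5826 in GABAergic nuclei, against 4261 to 4817) and a higher Gad1 mean (4025 TPM against 1838 TPM), while Six3, a TRN marker, was at 95.9 TPM and 107.7 TPM. The 13 unselected plate names lay between the sets, from 56.4 to 158.6 TPM with a median of 73.6 TPM. The series' own text gives fewer plates for that sort than there are names, so a name there may not be a plate of its own. The part of depth or of the plate set in the Ptchd1 level was not tested. Ptchd1 is therefore also given within each set for the main comparisons of neurons below, but not for clusters of GABAergic nuclei.

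**Figure D1:**
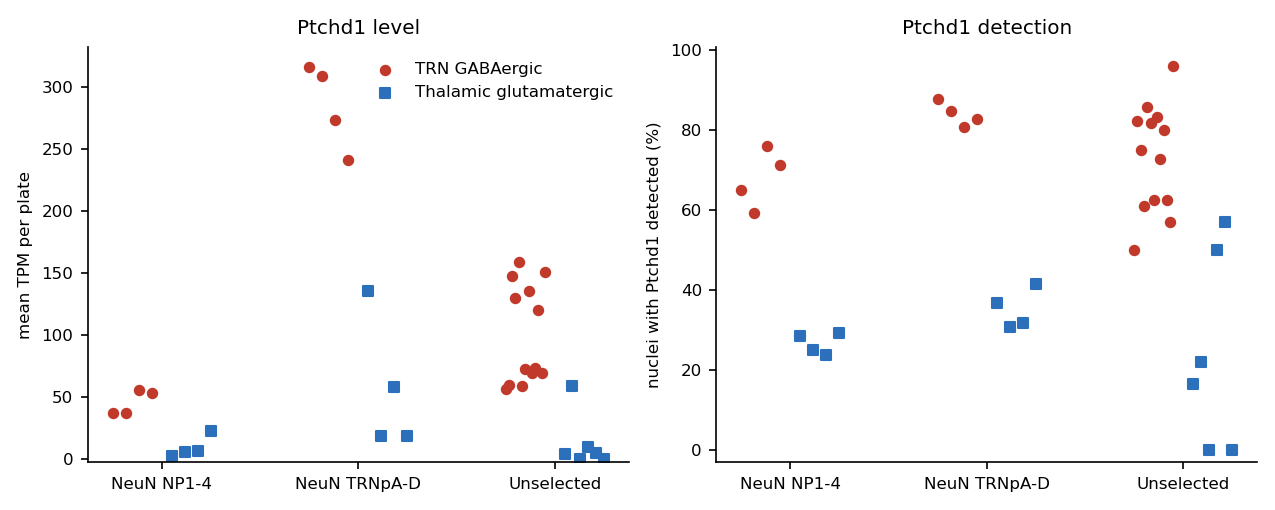
Ptchd1 per plate in TRN GABAergic (red circles) and thalamic glutamatergic nuclei (blue squares), for plates with at least 5 nuclei of the class; the left axis is the plate's mean TPM and the right axis the percentage of nuclei with Ptchd1 detected. GABAergic nuclei lie at 36.8 to 55.8 TPM on the NP plates, 241.1 to 316.6 TPM on the TRNp plates and 56.4 to 158.6 TPM on the unselected plates.

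Ptchd1 was higher in TRN GABAergic than in thalamic glutamatergic nuclei on all 14 plates compared. Here and below, plates are compared only where they hold at least 5 nuclei of both kinds. Over all nuclei the means were 150.1 TPM and 29.2 TPM, a log2 ratio of 2.33, and Ptchd1 was detected in 75.7% (95% interval 72.5 to 78.7) of GABAergic and 29.6% (23.4 to 36.5) of glutamatergic nuclei. By plate the ratio was 1.20 at the lowest, 3.25 at the median and 7.25 at the highest; the highest values come from plates where few glutamatergic nuclei were present and none had Ptchd1. Within the NP plates the ratio was 2.29, within the TRNp plates 2.11 and within the unselected plates 2.73. Single plates weigh on these values: the TRNpA plate had the highest glutamatergic mean, 135.2 TPM, and without it the ratio within the TRNp plates was 2.86. Without 1 unselected plate with a glutamatergic mean of 58.6 TPM, the ratio within the unselected plates was 3.72. Gad1 was also detected in 17.3% of glutamatergic nuclei on the NP plates and 28.8% on the TRNp plates, and its part in their Ptchd1 level was not tested.

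Shank3 went the other way and was lower in TRN GABAergic nuclei. Its mean was 3.11 TPM in GABAergic nuclei and 22.7 TPM in glutamatergic nuclei, a log2 ratio of -2.53. The ratio was negative on 14 of 14 plates, from -4.19 to -1.31. Shank3 was detected in 23.1% of GABAergic and 71.4% of glutamatergic nuclei, and no plate's GABAergic mean reached its own glutamatergic mean. Plate means in glutamatergic nuclei ran from 8.8 to 37.3 TPM on the NeuN-selected plates and from 7.7 to 44.5 TPM on the unselected plates, and those in GABAergic nuclei from 1.09 to 4.27 TPM and from 0.404 to 10.1 TPM. Ptchd1 and Shank3 were the 2 of the 5 genes past 2-fold here, 1 in each direction, where 12% of 15216 genes tested were at least 2-fold higher and 11.4% at least 2-fold lower.

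The remaining genes did not pass 2-fold between these classes. Cntnap2 was at 74.6 TPM in GABAergic and 114.7 TPM in glutamatergic nuclei (log2 ratio -0.61), and it was the lower in GABAergic nuclei on 12 of 14 plates by the plate ratios, which ran from -2.67 to 1.47. Ank2 was at 177.1 TPM and 184.6 TPM (log2 ratio -0.06), with plate ratios on both sides of 0. Chd2 was at 19.5 TPM and 26 TPM (log2 ratio -0.39), with plate ratios from -1.87 to 2.12. For each of these genes the plate means of the classes overlapped. For Cntnap2, Ank2 and Chd2 alike the difference was smaller than the spread of the plate ratios (SD 1.01, 0.53 and 1.06, n = 14).

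**Figure D2:**
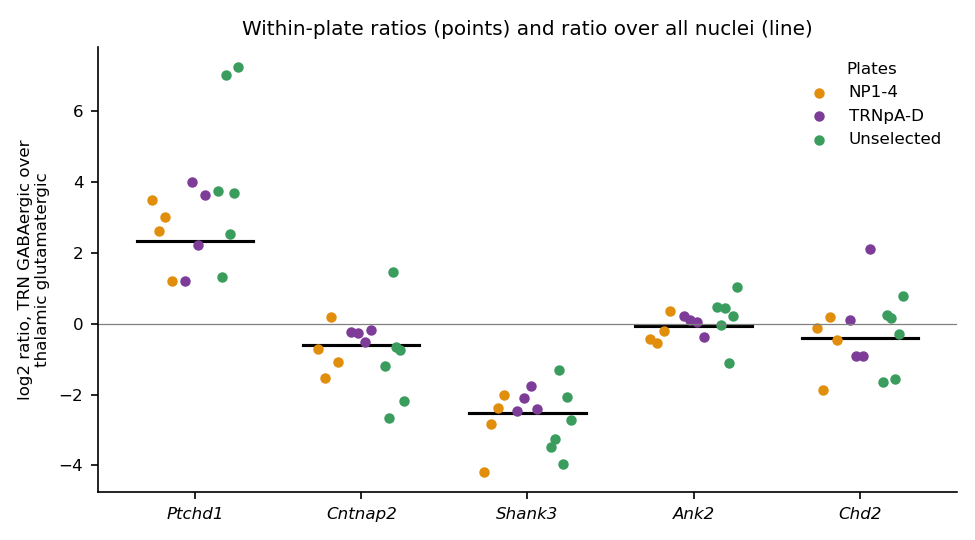
Log2 ratio of TRN GABAergic over thalamic glutamatergic mean TPM + 1 for each gene; points are the 14 plates with at least 5 nuclei of both classes, coloured by plate set, and black lines are the ratio over all nuclei. All 14 points are above 0 for Ptchd1 and below 0 for Shank3, while those of Cntnap2, Ank2 and Chd2 lie on both sides of 0.

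Genes of the same families and roles were read from lists, beside the median log2 ratio of 0.00 over all genes tested. Of 15 tested genes of the patched and hedgehog list, 4 were at least 2-fold higher and 3 lower in TRN GABAergic nuclei. Ptch1, the hedgehog receptor, was at 8.48 TPM against 2.71 TPM and Ptchd4 at 91 TPM against 38.4 TPM, while Smo, the hedgehog signal transducer, was at 0.214 TPM against 7.11 TPM. Of 18 postsynaptic scaffold genes, 3 were higher and 7 lower, with a median of -0.80. Homer2, a Shank-binding scaffold, was at 12.3 TPM against 77.4 TPM and Dlgap3 at 4.41 TPM against 31.1 TPM, whereas Baiap2 was at 97 TPM against 3.97 TPM.

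Of 19 contactin-associated and axonal adhesion genes, 2 were higher and 5 lower (median -0.43). Cntnap3 was at 12.3 TPM in GABAergic nuclei and listed at 0 in glutamatergic nuclei, and Cntn6 was at 27.1 TPM against 133.1 TPM. Of 15 ankyrin and spectrin genes, 1 was higher (Ank1, log2 ratio 1.21) and 2 lower (L1cam, -1.34, and Sptbn1, -1.23). Of 9 CHD remodelers, only Chd7 passed 2-fold (-1.14). Of 25 chromatin and transcription genes linked to disorders, 1 was higher and 5 lower (20%, beside 11.4% over all genes), with a median of -0.36. Of 29 channel, synapse and signalling genes, 2 were higher and 6 lower (20.7%), with a median of -0.35. Foxp2 was at 1.65 TPM against 24.4 TPM and the glutamate receptor gene Grin2a at 22.5 TPM against 104.1 TPM. Of 22 other X-linked disorder genes, 2 were higher and 1 lower, with a median of 0.12. Dcx was at 24.6 TPM against 5.64 TPM.

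GFP-sorted GABAergic nuclei of other regions had less Ptchd1 than TRN GABAergic nuclei. The mean was 27.4 TPM in hippocampus (99 nuclei), 7.92 TPM in M2 cortex (60.1% of its nuclei), 8.9 TPM in somatosensory cortex (120 nuclei) and 26.7 TPM in striatum, where 1 of 14 nuclei held all of it. Ptchd1 was detected in 22.2% (14.5 to 31.7), 4.95% (1.63 to 11.2), 4.17% (1.37 to 9.46) and 7.14% (0.181 to 33.9) of these nuclei. The equally weighted mean of the 4 regions was 17.7 TPM, a log2 ratio of 3.01 for TRN over the regions. It was 1.32 with the NP plates alone, 3.94 with the TRNp plates alone and 2.48 with the unselected plates alone. Hippocampal plate means ran from 7.7 to 66.8 TPM and overlap the NP plates, but the share of nuclei with Ptchd1 was 59.4% or more on each NP plate. The median number of detected genes was 5213 in hippocampal, 4172 in M2 and 4025 in somatosensory GABAergic nuclei, against 4812.5 in TRN GABAergic nuclei. TRN and GFP values come from separately scaled tables, and fewer nuclei of a type cannot be told apart from less RNA per nucleus.

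Ptchd1 was the only member called in that comparison, where 10.4% of 15977 genes tested were at least 2-fold higher and 17.7% at least 2-fold lower in the TRN. Cntnap2 (log2 ratio -0.93) and Shank3 (-0.97) lay just inside the 2-fold limit. The TRN group includes a cluster with little Six3 and Pvalb, described below. Cntnap2 was at 116.9 TPM in that cluster and at 65.8 TPM in the other TRN GABAergic nuclei. Without that cluster 2 members were called, and several other settings listed at the end also gave more than 1. Cntnap2 was at 96.9 TPM in hippocampal, 150.98 TPM in M2, 186.2 TPM in somatosensory and 136.1 TPM in striatal GABAergic nuclei, all above the TRN mean of 74.6 TPM. Shank3 was at 7.88, 7.86, 8.61 and 3.9 TPM in the same order, all above 3.11 TPM. The striatal value rests on few nuclei: 4 of 14 had Shank3, and without the highest, at 41.8 TPM, the mean was 0.984 TPM. It also lay below the 4.7 TPM of unselected TRN GABAergic nuclei. Ank2 stood at 217.8 to 287.6 TPM (log2 ratio -0.44) and Chd2 at 21 to 45.2 TPM (-0.73). The adhesion list had 8 of 19 genes at least 2-fold lower in the TRN and 2 higher, with a median of -0.69 beside -0.20 over all genes; Cntnap4 was at 9.89 TPM against 165.4 TPM and Cntn1 at 218.98 TPM against 55 TPM. The postsynaptic scaffold list had 2 of 18 lower and 0 higher, among them Dlgap2 at 11 TPM against 300.5 TPM. Of 14 patched and hedgehog genes 1 was higher and 1 lower, the lower being Shh at 2.3 TPM against 8.32 TPM.

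**Figure D3:**
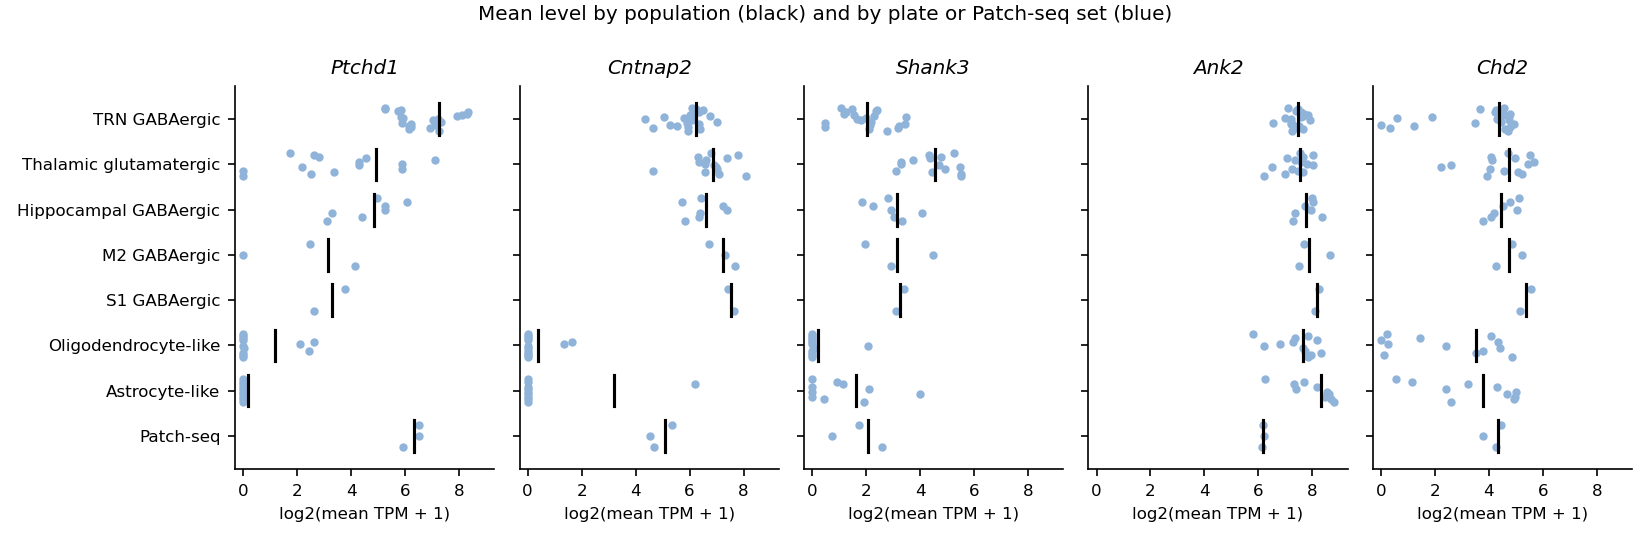
Log2(mean TPM + 1) of each gene by population; blue points are plates with at least 5 nuclei (or Patch-seq sets) and black lines are means over all nuclei. Ptchd1 is at 150.1 TPM in TRN GABAergic nuclei and at 1.26 and 0.132 TPM in oligodendrocyte-like and astrocyte-like nuclei, while Ank2 is at 177.1 TPM or more in every nuclear population drawn.

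Glial nuclei of the unselected TRN plates had little Ptchd1. Ptchd1 was at 1.26 TPM in oligodendrocyte-like nuclei (42.7% of the unselected nuclei), with 4 nuclei positive, and at 0.132 TPM in 79 astrocyte-like nuclei, with 1 positive, against 103.2 TPM in the GABAergic nuclei of the same plates (31.8%). The log2 ratios were 5.53 and 6.52, and the ratio was positive on 12 of 12 and 10 of 10 plates compared. The 1 astrocyte-like nucleus with Ptchd1 was on a plate with too few such nuclei to be compared. Cntnap2 was at 0.294 TPM in oligodendrocyte-like nuclei (log2 ratio 5.65). Its astrocyte-like mean of 8.24 TPM came from a single nucleus of 79 at 650.7 TPM, so the ratio of 2.81 rests on that nucleus; without its plate the ratio was 6.12. Shank3 was at 0.169 TPM in oligodendrocyte-like and 2.11 TPM in astrocyte-like nuclei, against 4.7 TPM (log2 ratios 2.29 and 0.87).

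Ank2 and Chd2 were also detected in glial nuclei. Ank2 was at 201.02 TPM in oligodendrocyte-like and 314.95 TPM in astrocyte-like nuclei against 157.5 TPM in GABAergic nuclei, a log2 ratio of -0.35 for the first and a difference just short of 2-fold for the second. It was detected in 79.4% and 82.3% of glial nuclei and in 93.2% of GABAergic nuclei, and the mean of log2 values gave ratios of 0.95 and 0.05, so the direction depends on the scale. Chd2 was at 10.4 TPM and 12.6 TPM against 16.5 TPM, detected in 12.5%, 24.1% and 39.8% of nuclei. Against oligodendrocyte-like nuclei 3 of the 5 genes were called higher, where 37.5% of 15240 genes tested were higher and 17.9% lower. Against astrocyte-like nuclei 2 were called higher, where 40.5% of 15087 genes were higher and 21.3% lower. Glial nuclei had far fewer detected genes (medians of 1989 and 2159) than GABAergic nuclei (4320), with no shared range between the 10th and 90th percentiles of the classes, and the part of depth was not tested.

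Spp1 and Ecel1 mark the ends of the TRN's range of GABAergic cells, and nuclei with only one of them did not differ by 2-fold in any of the 5 genes. Ptchd1 was at 160.3 TPM in Spp1-only nuclei (32.4% of the TRN GABAergic nuclei) and 154.3 TPM in Ecel1-only nuclei (35.2%), a log2 ratio of 0.05. The ratio was -0.29 within the NP plates, -0.04 within the TRNp plates and -0.06 within the unselected plates. It was higher in Spp1-only nuclei on 6 of 15 plates, and plate ratios ran from -2.50 to 2.28. Ptchd1 was detected in 82.9% of Spp1-only and 74.1% of Ecel1-only nuclei, whose median numbers of detected genes were 5270 and 4618.5. Their make-up also differs: a cluster with little Six3 and Pvalb, described below, had Ecel1 in 44% of its nuclei and Spp1 in 2.99%. Summed striatal projection neuron markers were at 134.7 TPM in Ecel1-only and 17.6 TPM in Spp1-only nuclei. Over 33 alternatives, leaving that cluster out among them, the Ptchd1 ratio ran from -0.51 to 0.56. Patch-seq cells gave 87.4 TPM in 32 Spp1-only and 106.5 TPM in 26 Ecel1-only cells (log2 ratio -0.28), but the 2 sets with at least 5 cells of each kind gave -0.02 and 0.11.

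Ank2 had the steadiest direction between these nuclei. Its mean was 212.97 TPM in Spp1-only and 162.2 TPM in Ecel1-only nuclei (log2 ratio 0.39), higher in Spp1-only nuclei on 11 of 15 plates and in each plate set (0.25, 0.39 and 0.47). The difference was smaller than the spread of the plate ratios (SD 0.52). Spp1-only nuclei also had more detected genes, with which Ank2 correlated positively on 12 of 13 plates, and the part of depth was not tested. In Patch-seq cells Ank2 was at 77 TPM in Spp1-only and 88.6 TPM in Ecel1-only cells, and the direction differed between the sets, 78.6 TPM against 98.7 TPM in one and 73.5 TPM against 69.9 TPM in the other. Cntnap2 was at 69 TPM in both kinds of nuclei, and its direction differed between the plate sets (0.21, -0.55 and 0.42). Shank3 was at 2.5 TPM and 3.37 TPM in nuclei and at 3.44 TPM and 1.21 TPM in Patch-seq cells. Chd2 was at 21.1 TPM and 19.9 TPM, but on the unselected plates at 26.5 TPM and 11.5 TPM (log2 ratio 1.14). Over all genes, 7.56% of 14991 tested were at least 2-fold higher and 11.2% at least 2-fold lower in Spp1-only nuclei, and 0 of the 5 genes were.

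Some genes of the same families passed 2-fold, and those named here are the ends of their lists. The cluster with little Six3 and Pvalb was kept in these means, and its part was not tested. Among the adhesion genes, 5 of 19 were at least 2-fold higher in Spp1-only nuclei and 2 lower (median 0.24): Kcna1, a potassium channel that CASPR2 gathers, was at 222.98 TPM against 69.3 TPM and Cntn6 at 8.56 TPM against 29.4 TPM. Of 18 scaffold genes 1 was higher, Shank2 at 85.1 TPM against 34 TPM, and 3 were lower, with Dlgap2 at 3.41 TPM against 18 TPM. Chl1, of the ankyrin and spectrin list, was at 6.06 TPM against 36.8 TPM, the only one of 15 past 2-fold. Among channel, synapse and signalling genes, Grin2a was at 38.1 TPM against 9.6 TPM, with 3 of 29 higher and 3 lower.

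**Figure D4:**
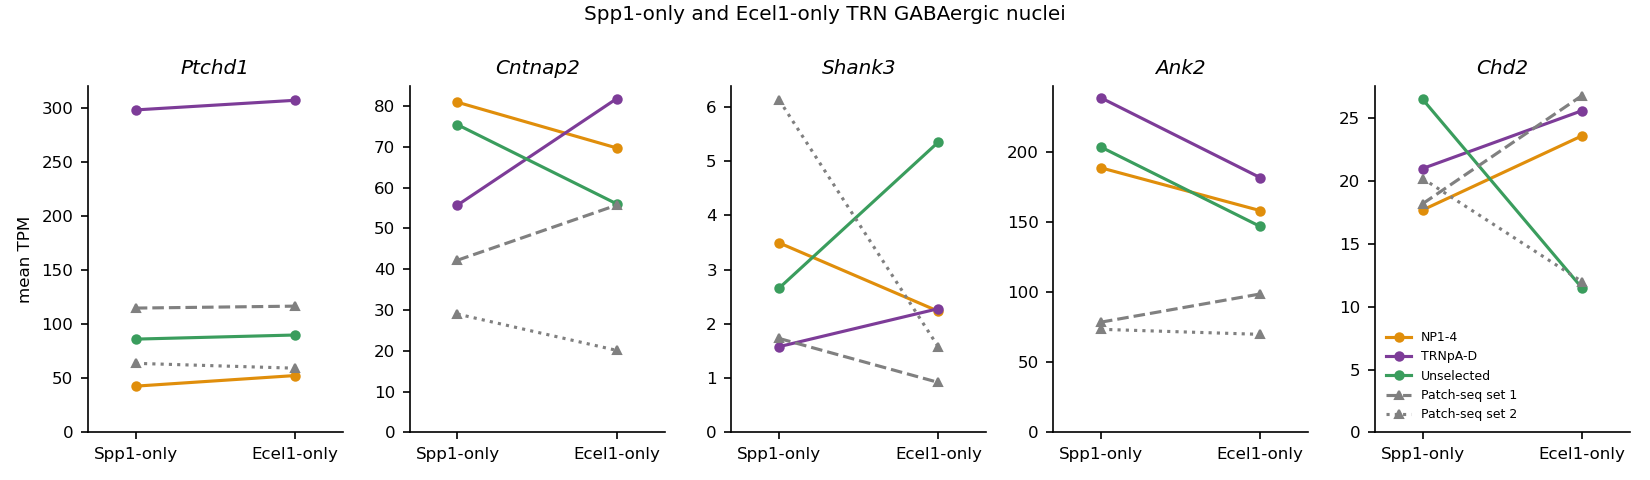
Mean TPM of each gene in Spp1-only and Ecel1-only nuclei within each TRN plate set (coloured circles) and in the 2 Patch-seq sets with at least 5 cells of each kind (grey triangles). Ptchd1 lines are nearly level within every set, from 42.8 and 52.6 TPM on the NP plates to 298.3 and 307.2 TPM on the TRNp plates, and Ank2 falls from Spp1-only to Ecel1-only in the 3 nuclear sets.

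Clusters of TRN GABAergic nuclei are described only, since plates and clusters were tied. The cluster led by Zfp758 and Map3k1 (25.8% of TRN GABAergic nuclei) had a Ptchd1 mean of 321.2 TPM, against 90.5 TPM in all other TRN GABAergic nuclei. Of its nuclei 98.5% were NeuN-selected. The shares of NP and TRNp plates in each cluster are not given here. A difference in Ptchd1 between clusters can therefore not be told apart from that between the plate sets. The cluster with the highest Spp1 mean (21.7%) had 93 TPM and a cluster led by Gm5615 and Cib2 (16.1%, with 3358 detected genes at the median) 82.7 TPM, while a cluster led by Ass1 and Bok (19.2%) had a log2 ratio of -0.67 to all other TRN GABAergic nuclei. A cluster (17.2%) with Calb2 but little Six3 (16.7 TPM) and Pvalb (22.6 TPM) had 82.8 TPM, with Ptchd1 in 57.5% of nuclei. That cluster had the highest Cntnap2 mean, 116.9 TPM against 65.8 TPM in the rest. Its summed level of 7 striatal projection neuron markers was 1152.2 TPM (1 marker at 0), against 8.81 to 20.5 TPM in the other clusters. Its summed level of 8 oligodendrocyte markers was 2049.7 TPM, against 386.7 to 1294 TPM. Their part in its Cntnap2 level was not tested. Shank3 stayed between 2.27 and 4.49 TPM, Ank2 between 136.2 and 206.96 TPM and Chd2 between 15.8 and 21.4 TPM across the 5 clusters.

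Within plates, the genes hardly tracked each other from nucleus to nucleus at the median of the plates. Over 13 plates with at least 20 GABAergic nuclei, the median Spearman correlation of Ptchd1 was 0.104 with Cntnap2, 0.072 with Shank3, 0.0273 with Ank2 and 0.0162 with Chd2. Single plates spread widely, in the same order from -0.0687 to 0.481, -0.0147 to 0.575, -0.187 to 0.18 and -0.244 to 0.297. With Shank3 the correlation was positive on 12 of 13 plates, with medians of 0.0496 on NeuN-selected and 0.209 on unselected plates. Each gene's correlation with the number of detected genes was at least as large (medians 0.138 to 0.187), and these are weak values in sparse data. All 5 genes were detected in 67 nuclei (8.61%) and none in 9, with median detected genes of 5427 and 3548.

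Patch-seq cells and NeuN-selected GABAergic nuclei differed in 3 of the 5 genes by more than 2-fold, all lower in the cells. Ptchd1 was at 79.5 TPM in 95 cells, and the 3 sets gave 91, 89.2 and 59.4 TPM, against 168.7 TPM in nuclei (log2 ratio -1.08). The direction turned to 0.78 against the NP plates alone, so it depends on the plate set. Cntnap2 was at 33.2 TPM against 78.8 TPM (-1.22) and Ank2 at 70.2 TPM against 184.9 TPM (-1.38), with set means of 68.6 to 72.5 TPM for Ank2 below all 8 NeuN plate means (137.2 to 226.4 TPM). Shank3 and Chd2 did not pass 2-fold (0.27 and -0.10). Of 15782 genes tested, 10.7% were at least 2-fold higher and 28.6% lower in the cells, with a median of -0.56 over all genes. Markers of other cells were also higher in the patched cells: the 8 microglial markers summed to 1077.8 to 1549.5 TPM by Patch-seq set and to 1.23 to 14.6 TPM by NeuN plate, where 1 of them was at 0. The 8 oligodendrocyte markers summed to 4533 to 6389 TPM and 705.3 to 2298 TPM, and the 7 neuronal markers to 3233 to 4327 TPM and 5145 to 6114 TPM. Their part in the lower levels was not tested. Cells hold cytoplasmic RNA that nuclei lack, and the tables were scaled separately.

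NeuN-selected and unselected GABAergic nuclei did not differ by 2-fold in any of the 5 genes, where 9.78% of 15079 genes tested were higher and 5.65% lower. Ptchd1 was at 168.7 TPM and 103.2 TPM (log2 ratio 0.70), which hides the split between plate sets: the ratio was -1.15 with the NP plates alone. GABAergic nuclei of the adjacent tissue (41 nuclei) had 82.1 TPM of Ptchd1, with 39.6, 70.9 and 141.7 TPM on 3 plates. Their 6 TRN markers summed to 2378 TPM, against 2077 TPM in TRN GABAergic nuclei. Their level can therefore not be read as that of GABAergic neurons outside the TRN. The 27 glutamatergic nuclei of the adjacent tissue had 33.3 TPM. Shank3 was at 6.04 TPM and 37.9 TPM in the same 2 classes.

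By whole sort group, before any class was named, Ptchd1 was at 141.7 TPM in NeuN-selected and 37.2 TPM in unselected TRN nuclei, 22.3 TPM in adjacent tissue, and 13.1 to 35 TPM in the 4 GFP-sorted regions. Plates ran from 12.8 to 75.9 TPM in unselected TRN nuclei and from 4.33 to 57.7 TPM in hippocampus, spans that hold the means of adjacent tissue and of all 4 GFP-sorted regions. The 1 striatal plate, at 35 TPM, lay above every M2 plate (10.4 to 17.9 TPM) and both somatosensory plates (17.7 and 17.9 TPM). That striatal mean rests on few nuclei. Ptchd1 was detected in 9 of 71, among them 1 astrocyte-like nucleus at 958.04 TPM and 1 GABAergic nucleus at 373.2 TPM. It can therefore not be read as a difference between regions. Glutamatergic neurons of the GFP plates had 36.5 TPM in hippocampus (50.2% of the 440 nuclei), 29.9 TPM in M2 cortex (47) and 48.4 TPM in somatosensory cortex (20), each above the GABAergic nuclei of the same region. These means rest on few nuclei with Ptchd1, detected in 17.7%, 11.9% and 8.72% of all nuclei of these groups (13 nuclei in somatosensory cortex). In hippocampus the plate range over all classes, 4.33 to 57.7 TPM, holds both class means. Shank3 was highest by class in striatal projection neuron-like nuclei of the striatum (38.2 TPM, 18 nuclei) and in glutamatergic nuclei of the adjacent tissue (37.9 TPM). Cntnap2 was at 18.6 and 41.7 TPM in somatosensory and M2 glutamatergic nuclei, below the GABAergic nuclei of those regions.

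Across 18 class-by-group populations of at least 20 nuclei, the genes whose levels followed each member most closely were found by Pearson correlation of log2(mean TPM + 1) over 16643 genes. Ptchd1 was closest to the sodium channel gene Scn3a (r = 0.949), AI593442 (0.921) and Fam155a (0.906). Scn3a, at 132.7 TPM on the TRNp plates and 70 TPM on the NP plates, moved less between plate sets than Ptchd1 did. In the same order AI593442 was at 1955 TPM and 590.03 TPM (log2 ratio 1.73) and Fam155a at 127.1 TPM and 145.4 TPM (-0.19). Shank3 was closest to Homer2 (0.933), Lonrf1 (0.931) and D630045J12Rik (0.927), Cntnap2 to Usp33 (0.934), Clvs1 (0.934) and Aldh18a1 (0.931), Ank2 to Mll5 (0.925), Malat1 (0.903) and Jtb (0.877), and Chd2 to Chd6 (0.91), Cacng7 (0.879) and Eif2ak4 (0.871). The populations share plates and cell classes, so these values are a description of likeness only.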

How the data were processed

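The deposited tables hold 1 column per nucleus or cell. Per the file's values, the TRN table holds natural log values of 1 + scaled TPM as the authors deposited them, and the other tables (GFP-sorted and Patch-seq) hold deposited TPM. The submitters' processing notes name Bowtie, RSEM, TopHat2 2.0.10, Seurat 2.2.0 and build mm10, with no role given. The TRN values were converted by exp(value) - 1 and each column was rescaled to a sum of 1000000, after which the values under 2 TPM fell on multiples of 0.01 within 0.1 steps. TPM keeps no read depth, so no count test was run; the smallest and largest numbers of detected genes per nucleus in each group describe the libraries (1721 and 8068 for NeuN-selected nuclei, 1503 and 6145 for unselected nuclei, 746 and 13164 for Patch-seq).

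Clusters came from the 2000 most variable genes without the 5 members, 30 principal components, 15 neighbours and the Leiden method at resolution 1 (leidenalg 0.10.2, scikit-learn 1.9.0), and were named from marker lists; the thresholds for naming were set after the markers' shares had been seen. Doublets were not called. Of the TRN nuclei with values, 753 were NeuN-selected and 694 unselected. The named classes held 778 TRN GABAergic nuclei (272 on the NP plates, 285 on the TRNp plates and 221 unselected), 199 thalamic glutamatergic nuclei, 296 unselected oligodendrocyte-like nuclei and 101 GABAergic nuclei of M2 cortex. Of the TRN GABAergic nuclei, 252 were Spp1-only and 274 Ecel1-only. Means were compared by the log2 ratio with a pseudocount of 1 TPM, among genes with a mean of at least 1 TPM in either group, and the fold calculation was tested on simulated data. The 5 members and the gene lists were chosen with earlier results of these data known. Named list genes are the 2 highest and 2 lowest log2 ratios per list among genes with a mean of at least 5 TPM in either group, and some of these are left out for space. The plate sets were defined from plate names after the plate means had been seen, and their comparison, the values within them and those without the GABAergic cluster that lacks TRN markers or without striatum, and those within a set without its highest glutamatergic plate, were added then. The other alternatives were a pseudocount of 10 TPM, the mean of log2 values, no filter, 1 TPM as the limit of detection, shared ranges of detected genes, resolutions 0.5 and 2, marker gates per nucleus, each plate left out, each TRN sort alone and the deposited scaling. The 994 samples without values were not analysed here.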

Additional observations from a re-analysis of the deposited data

Results flagged for a closer look

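Ptchd1 in thalamic glutamatergic nuclei had 1 plate far above the others in each sort. On the NeuN-selected plates it was TRNpA, at 135.2 TPM, where the next of 8 plates was at 58.1 TPM and the lowest at 2.36 TPM. Without that plate the log2 ratio of TRN GABAergic over glutamatergic nuclei was 2.82. On the unselected plates 1 plate was at 58.6 TPM, where the next of 6 plates was at 9.32 TPM and the lowest at 0. These were the 2 found among 20 groups of plates looked at, and for normally distributed values chance gives about 1 in 20. Plate means of TPM need not be normal, and the 8 NeuN-selected plates join the NP and TRNp sets, so the chance rate here is not known.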

How the results depend on the processing

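Of the values of the 5 genes under settings other than leaving out a plate, 95.4% stayed within 1 SD of the plates, 17 moved further and 1 value past 2-fold reversed. Of the same values 25 changed sign: the reversed one, 3 of those that moved further, and others within 1 SD. For classes on the same plates this SD is that of the plate ratios. For other comparisons it joins the spread of log2 plate means on both sides. It is then a wide limit: for Ptchd1 over GFP-sorted nuclei it was 1.86 and includes the split between NP and TRNp plates. The alternatives there ran from 1.32 to 4.22. Ptchd1 over thalamic glutamatergic nuclei ran from 1.93 to 3.72 over 35 alternatives and Shank3 from -2.82 to -1.32 (the last with a pseudocount of 10). The reversed value was Ptchd1 in Patch-seq over nuclei, 0.78 with the NP plates alone. Ptchd1 in NeuN-selected over unselected nuclei moved to -1.15 with the NP plates, and with either NeuN set alone 1 member was called in place of 0. Against glia a pseudocount of 10 gave 3.33 (Ptchd1), 2.84 (Cntnap2) and 0.53 (Shank3) for oligodendrocyte-like and 3.48 (Ptchd1) for astrocyte-like nuclei. The difference of mean log2 gave 2.92 (Cntnap2), 0.74 (Shank3) and 0.95 (Ank2), then 4.37 (Ptchd1) and 0.05 (Ank2), in the same order. It also gave 1.09 for Cntnap2 in NeuN-selected over unselected nuclei, with 1 member called, and 3.19 (Ptchd1) and 0.82 (Ank2) between the NeuN plate sets. Marker gates gave 5.81 for Cntnap2 over astrocyte-like nuclei. The deposited scaling gave -1.08 for Ank2 in Patch-seq, with 1 member called in place of 3, and the shared range of detected genes gave -0.46 for Cntnap2 there (19 cells). Over GFP-sorted GABAergic nuclei the members called rose from 1 to 3 with the deposited scaling and with the shared range, and to 2 with the difference of mean log2, resolution 0.5, marker gates, each sort alone, each NeuN set alone, without the cluster that lacks TRN markers and without striatum. Unselected plates alone gave 1 member called between Spp1-only and Ecel1-only nuclei, Chd2. Leaving out each plate in turn gave 1 to 3 members called over GFP-sorted nuclei and 2.43 to 6.12 for Cntnap2 over astrocyte-like nuclei. The cause was not tested for any of these. The shared range could not be run against glia because the ranges did not meet. No paired analysis was possible because the results come from no test; ratios within plates are given in its place.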
